A study of Mus musculus with 38 samples.

Results

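The comparison described here set 3 RNA sequencing libraries of control-diet mice against 3 WT libraries in the M-coded arm of an Apc experiment, 6 of the 38 samples of the series. The series concerned the gut of mice with colorectal cancer fed black rice or a control diet. Members were chosen by sample title and column name alone, and no measured value entered the choice. The first group, here called control M 1 to 3, carried the titles coded C, M and Apc and the treatment label control. The second group, WT M 1 to 3, carried titles coded WT, M and Apc and had no treatment label. All 18 libraries of this set, WT included, therefore had Apc in the title, and the labels named neither the Apc allele nor the strain, the age or the time of collection. What the WT mice ate was not given, so that genotype and diet cannot be told apart in this comparison. The tissue label was intestinal tract, and the column names said Colon. Nothing in the labels said whether replicates came from separate animals, so the p-values below measure only the spread between these samples. Beside them stand control F and WT F, labelled likewise but coded F, and black rice M, with the treatment label black rice, each of 3 libraries. The code M stood beside a summed level of 4 Y-linked transcripts of between 109 and 253 CPM in the 6 libraries, where CPM is a gene's read count scaled to the size of its library by the TMM method of edgeR.

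Apc is the scaffold of the complex that marks beta-catenin, the effector of Wnt signalling, for destruction, and mice with an inactivated Apc allele develop intestinal adenomas. Cholesterol genes are under the sterol sensor of the cell, since SREBP2, the product of Srebf2, is held in the endoplasmic reticulum by Insig proteins while sterols are plentiful, and is released to switch on the enzymes of cholesterol synthesis when they are scarce. The colon also runs a circadian clock, in which Clock and Arntl (Bmal1) drive genes such as Dbp, Nr1d1 and Per that peak together, at another time of day than Arntl itself.

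Depth ran from 44.8 to 61.9 M reads over the 6 libraries, and counting error was small for all but the rarest transcripts. Genes were tested with edgeR's quasi-likelihood test over all 18 libraries of the set, and a call needed a Benjamini-Hochberg adjusted p under 0.05 over 21624 genes. No gene passed in this comparison (0 of 21624, 0% of genes). The smallest adjusted p was 0.518, while 411 genes stood higher (1.9%) and 310 lower (1.43%) in control M at an unadjusted p under 0.05. Limma-voom with quality weights also called 0, and DESeq2 called 17, of which 11 were higher (0.0509% of genes) and 6 lower (0.0277%). The 3 control libraries lay above all 3 WT libraries for 649 genes (3%) and below all 3 for 566 (2.62%), and these shares are the background for the counts of members that did not overlap. Members of a list were measured in the same libraries and are not independent, so counts of them are a description. Log2 differences are given as control M minus WT M with their standard error (SE), and the median over all genes was 0.01. Tissue is a mixture of cells, and fewer cells of a type cannot be told apart from less RNA per cell.

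1 library stood apart from the other 5. Control M 3 lay at 72.0 on the first principal component, which held 41.5% of the variance among the 6 libraries, while control M 1 and 2 lay at -23.7 and -33.1 and the WT libraries between -24.7 and 29.8. Hoxb13, a Hox gene of the distal colon and rectum, measured 0.759 CPM in control M 3 against 249 and 305 CPM in control M 1 and 2, and 251, 151 and 79.2 CPM in WT M 1 to 3. Hoxb6, which marks a more anterior position along the body axis, measured 194 CPM in control M 3 and between 1.61 and 6.99 CPM in the other 5 libraries. Hox genes are known to keep a record of position along the gut, and by these 2 genes control M 3 differed from every other library of the comparison. Counts of most of the lists below are therefore also given without control M 3. Without it, control M 1 and 2 lay above all 3 WT libraries for 1683 genes (7.78%) and below them for 1415 (6.54%), shares that are larger because 2 libraries are easier to keep apart from 3.

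Apc itself, the gene the set is named for, did not differ beyond its spread. It measured 136, 106 and 184 CPM in control M 1 to 3 and 119, 91.5 and 129 CPM in WT M 1 to 3. The groups overlapped, with the highest value in control M 3 (log2 difference 0.33, SE 0.20, unadjusted p = 0.12 by edgeR; 0.10 without control M 3). A transcript level does not check an allele that the labels do not name. The 17 genes of the Apc and beta-catenin complex, which include the kinases and scaffolds that handle beta-catenin, had a median of 0.05 with 0 members that did not overlap. Ctnnb1, beta-catenin, measured between 422 and 553 CPM in control M and between 429 and 590 CPM in WT M (log2 difference -0.04, SE 0.18).

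Wnt targets and feedback genes, the textbook readout of free beta-catenin, stood apart between the groups in none of 20 members. Of these 15 were higher and 5 lower, with a median of 0.13, and without control M 3 the median was -0.03. Axin2, a feedback inhibitor of the pathway, measured 34.2, 44.9 and 49.1 CPM in control M against 38.2, 36.0 and 42.3 CPM in WT M (log2 difference 0.14, SE 0.20, unadjusted p = 0.50). Lgr5, a marker of crypt stem cells, measured 13.5, 16.8 and 24.2 CPM against 25.7, 17.5 and 24.7 CPM (log2 difference -0.32, SE 0.28), and Notum, a secreted Wnt inhibitor, measured at most 0.429 CPM in any of the 6 libraries. The groups overlapped for each of these 3 genes. Myc, a growth factor response gene that Wnt signalling also drives, had 66.7, 61.1 and 43.9 CPM against 34.8, 51.3 and 37.4 CPM, and only control M 1 and 2 lay above all WT libraries (log2 difference 0.48, SE 0.19, unadjusted p = 0.022).

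Stem and progenitor genes lay lower in 11 of 14, with a median of -0.28 and 2 apart, both lower (14%, against 2.62% of all genes). With control M 3 left out the median was -0.17, with 6 lower and apart (against 6.54% of all genes) and 1 higher and apart. Slc12a2, an ion cotransporter of crypt base cells, measured 340, 209 and 306 CPM against 385, 405 and 520 CPM (log2 difference -0.62, SE 0.24, unadjusted p = 0.019). Ascl2, a stem cell factor that Wnt signalling drives, stood the other way at 6.77, 12.4 and 11.5 CPM against 8.17, 6.21 and 3.80 CPM, with control M 1 inside the WT range.

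Proliferation genes had a median of -0.03 over 32 members, yet the 5 members that did not overlap were all lower in control M (16% of the list, against 2.62% of all genes). Mki67, expressed in cycling cells, measured 118, 137 and 159 CPM against 96.5, 101 and 171 CPM and overlapped. The 5 members were Ccne2, Hells, Mcm3, Mcm5 and Mcm6. Mcm6, a subunit of the replicative helicase, measured 38.7, 58.4 and 61.6 CPM against 66.7, 79.6 and 86.4 CPM (log2 difference -0.55, SE 0.31, unadjusted p = 0.090). Every control library lay below every WT library for it. Ccnb1 and Aurka, a cyclin and a kinase of mitosis, stood at 0.16 and -0.03 with overlapping groups. The list had a median of -0.02 and 5 lower and apart without control M 3, against 6.54% of all genes.

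Genes of cholesterol synthesis and uptake formed the group with the most members apart between the groups. All 25 members lay lower in control M, with a median log2 difference of -0.88 against 0.01 over all genes, and in 17 of 25 every control library lay below every WT library (68% of members, against 2.62% of all genes). None passed the threshold over all genes in edgeR, and 19 had an unadjusted p under 0.05, against 1.43% of all genes. DESeq2 called 4 of them, Lss, Acat2, Cyp51 and Idi1. Without control M 3, 24 of 25 lay lower with a median of -0.81, and in 18 the remaining control libraries lay below all WT libraries, against 6.54% of all genes. Summed over the 25 genes the level was 1214, 1569 and 1006 CPM in control M 1 to 3 and 1861, 2774 and 2651 CPM in WT M 1 to 3.

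The promoters of 4 genes of the list are shown. Lss, Cyp51 and Idi1 had the smallest edgeR p among members whose 250 bases before the start hold CCAAT. Hmgcs1 was added because it holds TCACNCCAC. CCAAT in Lss, Cyp51 and Idi1 was therefore a condition of the choice and not a result. The sequences are the 250 bases before the annotated start from RefSeq on build GRCm38.p6, written 5′ to 3′ along the gene. Capitals mark CCAAT on either strand, the element of NF-Y, a factor known to bind beside SREBP, and in Hmgcs1 also TCACNCCAC, a form of the sterol regulatory element. The build of the promoter table is not the one named for the counts, and the coordinates belong to the table.
Lss: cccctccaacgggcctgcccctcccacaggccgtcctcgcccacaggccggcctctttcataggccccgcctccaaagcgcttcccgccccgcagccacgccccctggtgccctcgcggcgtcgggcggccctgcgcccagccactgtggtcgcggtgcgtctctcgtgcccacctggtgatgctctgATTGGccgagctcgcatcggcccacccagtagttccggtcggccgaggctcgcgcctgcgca
Cyp51: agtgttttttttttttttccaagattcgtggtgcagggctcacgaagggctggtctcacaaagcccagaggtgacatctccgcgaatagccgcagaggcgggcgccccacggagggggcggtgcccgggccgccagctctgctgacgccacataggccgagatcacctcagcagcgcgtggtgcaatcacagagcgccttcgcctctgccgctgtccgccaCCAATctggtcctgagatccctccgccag
Idi1: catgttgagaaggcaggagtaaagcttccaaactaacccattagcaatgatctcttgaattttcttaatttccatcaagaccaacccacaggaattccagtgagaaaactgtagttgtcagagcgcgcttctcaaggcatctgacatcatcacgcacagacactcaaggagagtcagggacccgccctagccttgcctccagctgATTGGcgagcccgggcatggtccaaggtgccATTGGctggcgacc
Hmgcs1: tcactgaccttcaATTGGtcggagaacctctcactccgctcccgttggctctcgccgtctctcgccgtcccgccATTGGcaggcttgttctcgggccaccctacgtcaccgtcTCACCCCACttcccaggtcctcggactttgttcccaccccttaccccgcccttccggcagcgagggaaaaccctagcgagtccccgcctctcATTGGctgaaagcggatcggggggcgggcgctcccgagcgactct

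The windows lie at chr10:76531355-76531604 on the plus strand for Lss, chr5:4104698-4104947 on the minus strand for Cyp51, chr13:8885356-8885605 on the plus strand for Idi1 and chr13:119690101-119690350 on the plus strand for Hmgcs1. Windows of 300 bases, from 250 before to 50 after a start, were on hand for 17 of the 25 genes, 20 windows in all. CCAAT on either strand was found in 16 of the 20 windows (80%) and in 37.4% of all 32851 windows of the table. It was also found in 10 of 13 windows of the Dbp phase clock genes described below (76.9%) and in 6 of 10 of the Bmal1 phase (60%), and the shares of these lists were not tested against one another. Some genes had more than 1 window. Counted by gene, CCAAT was found in 16 of 17 cholesterol genes, 8 of 11 Dbp phase genes and 5 of 7 Bmal1 phase genes. TCACNCCAC was found in 1 of the 20 (5%), that of Hmgcs1, and in 1.24% of all windows. CACGTG, an E-box whose letters can overlap the end of TCACNCCAC, was found in 4 of the 20 (20%) and in 7.15% of all. These matches describe letters in a window, and binding was not measured.

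At the entry to the pathway all 3 enzymes were apart between the groups. Acat2, which joins acetyl-CoA units, measured 12.6, 14.0 and 9.68 CPM in control M and 25.1, 38.9 and 39.5 CPM in WT M. Every control library held less than the lowest WT library (log2 difference -1.51, SE 0.30, edgeR adjusted p = 0.518, DESeq2 adjusted p = 0.0033). Hmgcs1, HMG-CoA synthase, measured 87.5, 146 and 64.7 CPM against 166, 293 and 335 CPM (log2 difference -1.41, SE 0.40). The groups were apart for both.

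The 5 enzymes that turn mevalonate into isoprenoid units had a median of -1.34, and 4 did not overlap. Idi1, isopentenyl diphosphate isomerase, measured 14.6, 24.1 and 9.82 CPM in control M and 56.9, 59.4 and 79.4 CPM in WT M. The lowest WT library held more than 2 times the highest control library, and the log2 difference of -2.01 (SE 0.43) was among the largest of the list (edgeR adjusted p = 0.539, DESeq2 adjusted p = 0.0054). Mvk, mevalonate kinase, measured 9.62, 16.0 and 8.24 CPM against 21.3, 35.5 and 29.0 CPM (log2 difference -1.34, SE 0.32). Fdps, which makes farnesyl diphosphate, was scarce at 3.83, 6.47 and 2.79 CPM against 8.10, 16.5 and 14.8 CPM, and Pmvk showed the same order with a log2 difference of -0.74. Mvd was the member that overlapped with control M 2 at 24.5 CPM and WT M 1 at 24.4 CPM.

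The steps from squalene to lanosterol followed. Lss, lanosterol synthase, measured 16.9, 20.9 and 19.7 CPM in control M and 36.7, 68.0 and 85.6 CPM in WT M. The 3 control libraries were close to one another, while the WT libraries spread more widely, and the groups were apart (log2 difference -1.73, SE 0.34, edgeR adjusted p = 0.518, DESeq2 adjusted p = 0.0032). Fdft1, squalene synthase, measured 47.5, 85.8 and 49.6 CPM against 104, 202 and 156 CPM (log2 difference -1.34, SE 0.33). Sqle, squalene epoxidase, had 27.7, 56.0 and 25.3 CPM against 55.2, 109 and 114 CPM, and control M 2 lay just above WT M 1.

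Among the 9 enzymes after lanosterol Cyp51 and Msmo1 differed most. Cyp51, lanosterol demethylase, measured 78.1, 104 and 58.0 CPM against 159, 305 and 346 CPM (log2 difference -1.75, SE 0.37, edgeR adjusted p = 0.539, DESeq2 adjusted p = 0.0054). Msmo1, the methyl sterol oxidase, measured 81.2, 150 and 42.4 CPM against 181, 337 and 315 CPM (log2 difference -1.60, SE 0.42). Both kept every control library below every WT library, as did Nsdhl, Hsd17b7 and Dhcr7. The differences of these 3 were smaller, at -0.80, -0.85 and -0.55. Ebp, Sc5d and Tm7sf2 overlapped with differences between -0.32 and -0.07, and without control M 3 Ebp stood at 0.14. Over the 9 the median was -0.55.

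Among the 5 genes of uptake, transport and control the median was -0.41, and 3 were apart. The 3 members described here had the smallest differences of the 5. Stard4, a cholesterol carrier, was among those apart, at 147, 153 and 114 CPM against 169, 187 and 179.9 CPM (log2 difference -0.38, SE 0.16). Srebf2 itself lay close in both groups, at 106, 130 and 113 CPM against 122, 169 and 152 CPM, and overlapped by 1 library (log2 difference -0.35, SE 0.17). Insig1, which retains SREBP2 and is also its target, had 80.2 and 61.2 CPM in control M 1 and 2 and 22.3 CPM in control M 3 against 76.6, 74.7 and 66.4 CPM, and its difference of -0.41 was -0.04 without control M 3.

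**Figure D1:**
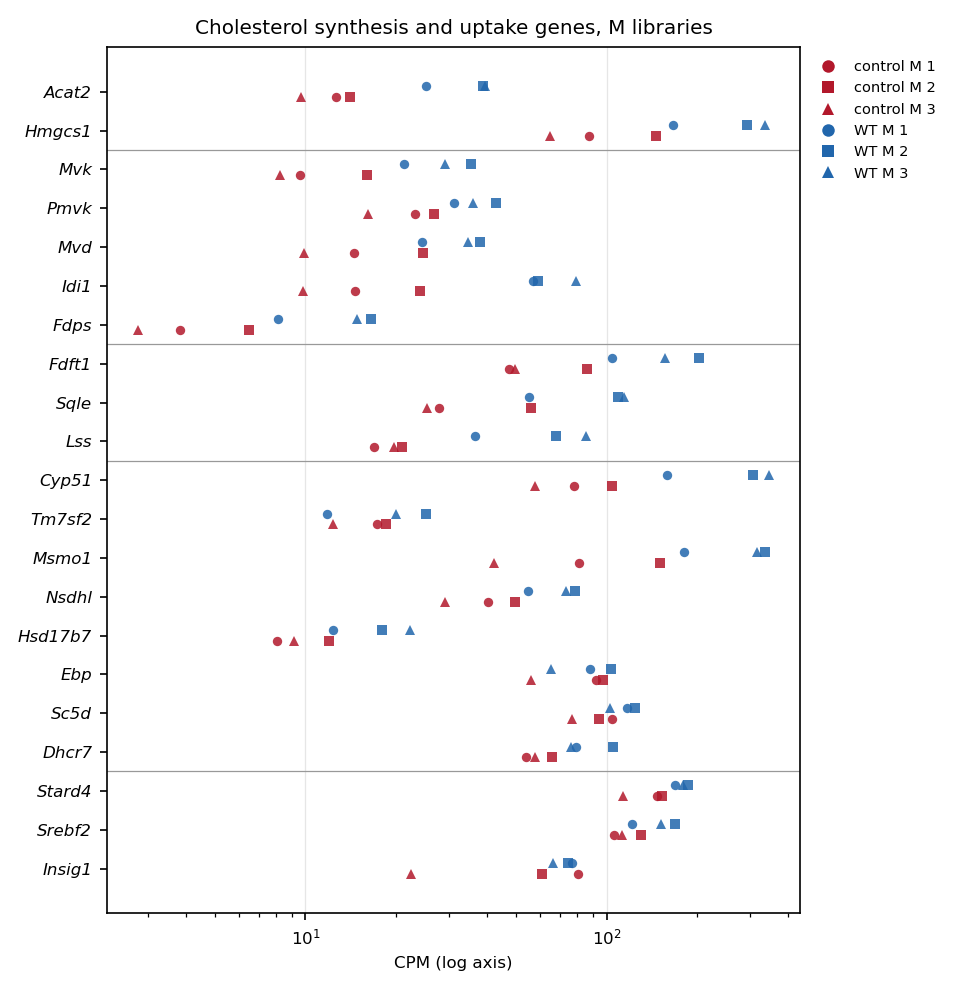
Level of 21 of the 25 cholesterol genes in every M library, in CPM on a log axis, with control libraries as red marks and WT libraries as blue marks, 1 mark a library, and lines between the steps of the pathway. Red marks lie left of all blue marks for 14 of these 21 genes, and genes such as Ebp and Tm7sf2 show the groups mixed.

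Control M 3 was the lowest of the 6 libraries for 17 of the 25 genes, and WT M 1 was the lowest WT library for 20. These positions set the spread within each group, and 24 of 25 genes lay lower in control M when control M 3 was left out. A further 10 genes that SREBP2 is known to drive or that sit beside the pathway were listed after values had been seen, so they describe the same libraries. Of these 8 lay lower, with a median of -0.35, and 3 did not overlap, all lower (30%, against 2.62% of all genes). Mmab, a cobalamin enzyme whose gene shares a promoter with Mvk, measured 19.7, 22.4 and 14.8 CPM against 26.8, 40.7 and 36.3 CPM (log2 difference -0.87, SE 0.22, edgeR adjusted p = 0.962). Erg28, a scaffold of the sterol demethylation complex, and Aacs, acetoacetyl-CoA synthetase, were also apart, at -0.82 and -0.89. Lipogenesis genes, which the related factor SREBP1 drives, had a median closer to 0. It was -0.18 with 6 of 16 higher, and Srebf1 measured 42.7, 44.8 and 39.0 CPM against 53.8, 50.9 and 56.4 CPM, apart between the groups (log2 difference -0.35, SE 0.16, unadjusted p = 0.042). Fasn, fatty acid synthase, and Acaca, acetyl-CoA carboxylase, were the other 2 members whose groups did not overlap, both lower in control M by -0.43 and -0.41. The 3 lipogenesis genes apart made 19% of the list, against 2.62% of all genes.

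The F-coded libraries of the same set give the comparison of control and WT in other samples, with no library in common. They too included libraries of mixed position markers, with Hoxb13 at 0.448 CPM in control F 1 and between 91.7 and 261 CPM in the other 5. Hoxb6 measured 149, 50.5 and 3.05 CPM in control F 1 to 3 and 38.8, 2.55 and 75.2 CPM in WT F 1 to 3. Setting control F 1 aside therefore does not leave F libraries that are alike in Hoxb6. In F 0 of 21624 genes passed by edgeR (0%; 873 at an unadjusted p under 0.05), 1219 genes had all 3 control libraries higher (5.64%) and 1149 lower (5.31%). Of the 25 cholesterol genes 23 stood higher in control F, with a median of 0.34, and in 11 of 25 the groups did not overlap, all higher (44%, against 5.64% of all genes). Summed over the list, the 3 control F libraries lay at 2266, 1886 and 2212 CPM and the WT F libraries at 1537, 1818 and 1325 CPM. The sums thus stood in opposite order in M and F, and in F control F 2 and 3 lay above all WT F libraries also when control F 1 is set aside. Across all 21624 genes, by contrast, the log2 differences of M and F had a Pearson r of 0.06 and a Spearman rho of 0.07, given as a description since genes are not independent.

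The difference between the M and F comparisons was tested gene by gene. In edgeR 0 genes passed (0%), DESeq2 called 7 and limma-voom 0, while 617 genes had an unadjusted p under 0.05, of which 286 were on the lower side (1.32%). Among the 25 cholesterol genes 21 had an unadjusted p under 0.05 on that side (against 1.32% of all genes), with a median difference of -1.54 over the list. These genes are not independent of one another, so the count is a description. Lss stood at -1.73 in M and 0.66 in F, a difference of -2.39 (SE 0.47, unadjusted p = 0.00012, edgeR adjusted p = 0.99994). In F it measured 59.7, 52.1 and 65.2 CPM in control and 36.3, 40.3 and 35.4 CPM in WT, so the lowest of the 4 groups was control M and the highest single library was a WT M library.

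**Figure D2:**
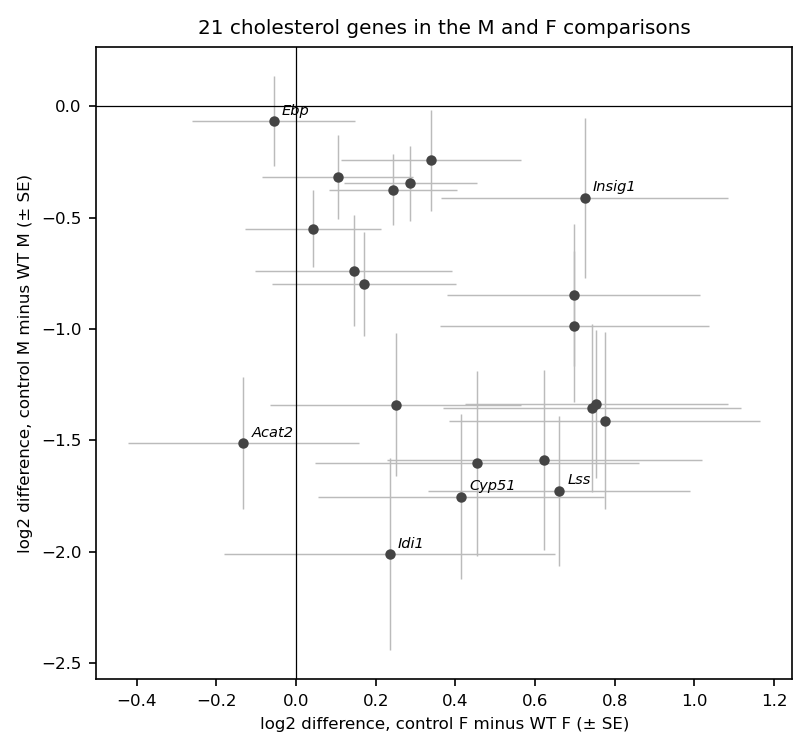
Log2 difference between control and WT of 21 of the 25 cholesterol genes in the F libraries (horizontal) and in the M libraries (vertical), with bars of 1 SE. All 21 points lie below 0 in M and 19 lie right of 0 in F.

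The black rice libraries of the M arm give another level for the same genes. They are set beside the others as values only, because a comparison of black rice with control would use the same control M libraries. The sum over the 25 genes was 2319, 1888 and 3994 CPM in black rice M 1 to 3, above all control M libraries, with black rice M 1 and 2 inside and black rice M 3 above the WT M range of 1861 to 2774 CPM. Idi1 measured 42.5, 40.2 and 122 CPM in black rice M, and Lss 52.7, 58.8 and 136 CPM.

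Clock genes that peak with Dbp lay lower in control M in 11 of 12 members, with a median of -0.48. In 5 of 12 the groups did not overlap (42%, against 2.62% of all genes). Of the 12, 6 were lower at an unadjusted p under 0.05 by edgeR, against 1.43% of all genes. Dbp, a transcription factor whose level swings over the day, measured 4.73, 11.4 and 9.88 CPM in control M and 23.0, 24 and 26.2 CPM in WT M. The lowest WT library held about 2 times the highest control library (log2 difference -1.49, SE 0.37, edgeR adjusted p = 0.962). Ciart, a repressor in the clock, measured 2.19, 3.68 and 2.15 CPM against 5.86, 6.33 and 10.3 CPM (log2 difference -1.48, SE 0.32, edgeR adjusted p = 0.539, DESeq2 adjusted p = 0.011). Nr1d1 and Nr1d2, nuclear receptors that repress Arntl, differed by -0.99 (SE 0.33) and -0.62 (SE 0.20), and Hlf, a relative of Dbp, by -0.58 (SE 0.19), all with the groups apart.

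The Period genes of the same phase overlapped. Per1 measured 52.7, 39.7 and 38.7 CPM against 58.4, 43.3 and 59.8 CPM, and Per2 and Per3 differed by -0.34 (SE 0.31) and -0.39 (SE 0.33). Genes of the opposite phase lay the other way in part. Npas2, a partner of Arntl, measured 41.6, 19.4 and 13.0 CPM in control M and 9.19, 6.14 and 5.19 CPM in WT M, apart in every library (log2 difference 1.85, SE 0.39, edgeR adjusted p = 0.539, DESeq2 adjusted p = 0.0060; 1.23 without control M 1). Nfil3, a repressor of Dbp's targets, and Cry1 were apart too, at 1.44 (SE 0.57) and 0.30 (SE 0.13). Arntl had 71.5, 45.9 and 21.2 CPM against 38.1, 21.8 and 11.9 CPM and overlapped, with control M 3 below WT M 1 and 2 (log2 difference 0.95, SE 0.40), while Clock, Nampt and E2f8 differed by between -0.33 and 0.10. Over the 8 genes 6 were higher, 3 were apart (38%, against 3% of all genes) and the median was 0.20, and without control M 3 the median was 0.27 with 4 apart, against 7.78%.

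Without control M 3 the Dbp phase had a median of -0.66, with 7 members lower and apart (against 6.54% of all genes) and 1 higher. In the F libraries all 12 Dbp phase genes lay lower in control, with a median of -0.61 and 8 apart (67%, against 5.31%). Dbp differed there by -1.06 (SE 0.36), and the difference between M and F was -0.43 (SE 0.51, unadjusted p = 0.41). Npas2, by contrast, stood at 0.14 (SE 0.38) in F, and its difference between M and F was 1.71 (SE 0.54, unadjusted p = 0.0065, adjusted p = 0.99994 by edgeR). Among Dbp phase promoters CACGTG, the E-box that Clock and Arntl bind, was found in 5 of 13 windows of 11 genes (38.5%) and in 7.15% of all windows, and TTATGTAA, a D-box, in 1 of 13 (7.69%) and in 0.938% of all. The 5 windows with CACGTG belonged to 4 genes.

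**Figure D3:**
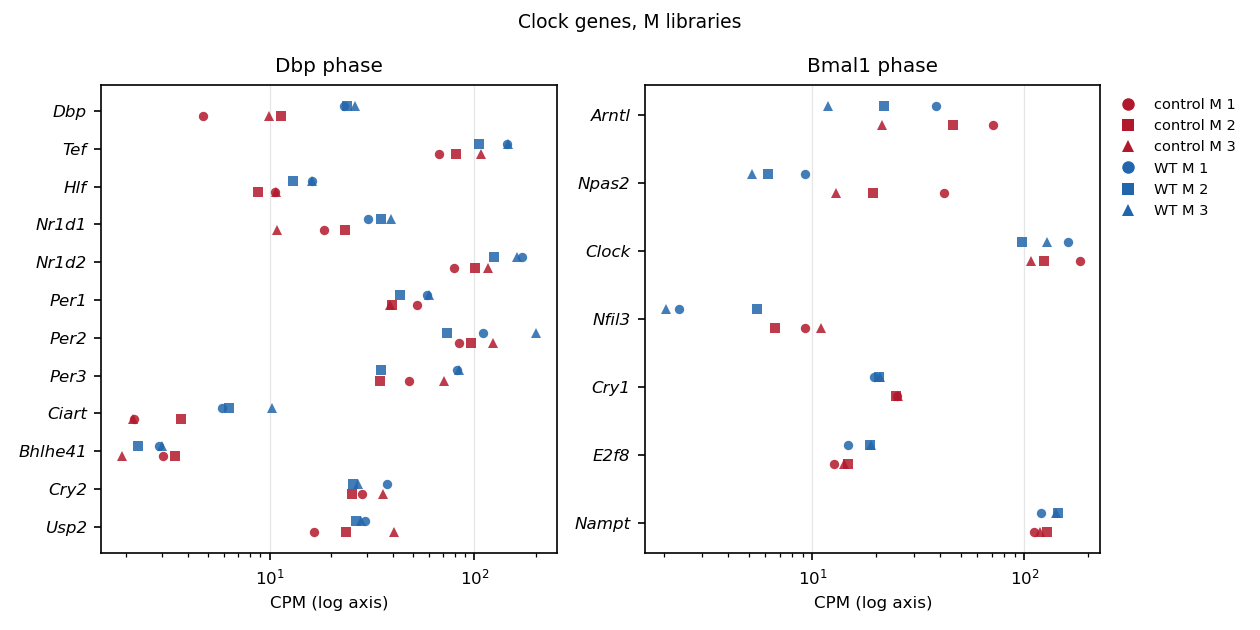
Level of clock genes of the Dbp phase (left) and of the Bmal1 phase (right) in every M library, in CPM on a log axis, with control libraries in red and WT libraries in blue. Red marks lie left of blue for Dbp and Ciart and right of blue for Npas2 and Nfil3.

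Several single genes outside these groups stood near the top of the ranking without passing in edgeR. Depp1, a gene that FOXO factors and fasting induce, measured 27.1, 16.3 and 12.6 CPM in control M and 3.99, 3.16 and 2.55 CPM in WT M. Every control library held over 3 times the highest WT library (log2 difference 2.53, SE 0.44, edgeR adjusted p = 0.518, DESeq2 adjusted p = 3.8e-05). In F it stood at -0.75, and the difference of 3.28 (SE 0.60) had the smallest unadjusted p of the M and F test, 5.8e-05, with an adjusted p of 0.99994. The wider list of fasting and FOXO targets had a median of 0.11 with 13 of 17 higher. In that list 1 was apart (6%, against 3% of all genes).

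Lox, which cross-links collagen, measured 8.19, 6.28 and 5.21 CPM against 1.13, 2.62 and 2.44 CPM (log2 difference 1.67, SE 0.36, edgeR adjusted p = 0.539). The groups were apart by about 2 times, and F showed 1.46. Fibroblast and matrix genes had a median of 0.03 over 27. Npy4r, a receptor of pancreatic polypeptide, measured 4.30, 4.24 and 3.81 CPM against 6.45, 8.47 and 8.39 CPM (log2 difference -0.91, SE 0.19), with narrow spread in both groups. S1pr3, a receptor of sphingosine 1-phosphate, Casq2, a calcium store protein, Mchr1, a receptor of melanin-concentrating hormone, and Hey1, a Notch target, stood higher in every control library, by 0.81, 0.70, 1.06 and 1.17.

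Transcripts of plasma proteins, made chiefly by the liver, were mostly scarce and stood higher in control M. Of 17 listed hepatocyte genes 15 passed the low-count filter, and those 15 were all higher, with a median of 1.07. In 7 the groups did not overlap, against 3% of all genes. Alb, serum albumin, measured 22.3, 13.9 and 11.5 CPM in control M and 7.12, 8.77 and 6.82 CPM in WT M. All control libraries lay above all WT libraries (log2 difference 1.07, SE 0.41, unadjusted p = 0.020). Ahsg, fetuin A, measured 2.67, 1.89 and 2.01 CPM against 0.849, 0.587 and 0.987 CPM, and Serpina3k, a protease inhibitor, 2.37, 1.91 and 2.19 CPM against 0.871, 0.746 and 0.965 CPM. Their log2 differences were 1.44 (SE 0.40) and 1.32 (SE 0.38), and neither passed.

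The same held for fibrinogen chains and apolipoproteins. Fgg and Fgb, chains of fibrinogen, differed by 1.30 (SE 0.42) and 1.0 (SE 0.37) with the groups apart, while Fga overlapped at 0.67. Serpina1a, an alpha-1 antitrypsin gene, differed by 2.01 (SE 0.58) at no more than 0.515 CPM, and reads of the near-identical Serpina1 copies may have been split by the counting. Of 20 further plasma protein genes listed after values had been seen, 18 were higher, with a median of 1.38. Of the 20, 12 were apart, all higher (60%, against 3% of all genes). Apoc1, an apolipoprotein of liver and macrophages, measured 3.90, 4.58 and 1.37 CPM against 0.719, 0.678 and 0.793 CPM (log2 difference 2.17, SE 0.41, edgeR adjusted p = 0.518, DESeq2 adjusted p = 0.0013). In F it stood at -0.52, and Hpx, hemopexin, which was 4.97, 3.66 and 4.31 CPM against 1.66, 1.49 and 1.35 CPM in M, stood at 0.79 in F. Cyp2e1 and Hp, which fat cells make as well, were highest in control M 2 at 38.6 and 12.1 CPM, the library with the most Adipoq. Without control M 3, 15 of the 16 hepatocyte genes then tested were higher, with a median of 1.19, and Ambp stood at -0.01. Of the 15 hepatocyte genes tested with all libraries, 13 were then apart, against 7.78% of all genes. In F 11 of these 15 were higher, with a median of 0.29 and 0 apart. Of the 20 further plasma protein genes, 16 were higher without control M 3, with a median of 1.45. Of the 20, 14 were then apart, against 7.78% of all genes. Summed, the 20 genes took 43.6, 49.5 and 48.0 CPM in control M 1 to 3 and 25.4, 48.3 and 33.2 CPM in WT M 1 to 3, with overlap. In F 16 of the 20 were higher, with 4 higher and apart (against 5.64% of all genes) and 1 lower and apart.

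Erythroid transcripts stood higher as well. Of 14 listed genes 11 passed the low-count filter, 8 were higher, and 6 did not overlap, all higher (against 3% of all genes). The counts without control M 3 were again 8 higher and 6 apart, against 7.78%. Hbb-bs, a beta globin, measured 39.3, 106 and 87.4 CPM in control M and 14.8, 33.5 and 5.88 CPM in WT M. The lowest control library lay just above the highest WT library (log2 difference 2.10, SE 0.80, unadjusted p = 0.019). Hba-a1 and Hba-a2, near-identical alpha globin copies between which reads may be split, differed by 2.31 (SE 0.83) and 2.69 (SE 0.83), and Hbb-bt by 2.45 (SE 0.91). Alas2, the erythroid enzyme of haem synthesis, measured 2.21, 4.58 and 3.73 CPM against 0.348, 1.29 and 0.107 CPM. Slc4a1, the anion exchanger of red cells, measured only 0.846, 1.03 and 0.185 CPM against 0.109, 0 and 0 CPM. So scarce a gene reaches the low-count filter mostly through libraries where it is high, which favours its being counted as higher and apart. Enzymes that other cells share, Fech and Bpgm, overlapped at -0.07 and 0.07. Summed, the list took 162 to 279 CPM in control M and 118 to 183 CPM in WT M.

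Slc11a2, the iron importer of the epithelium and of other cells, was among the 10 genes of smallest p on the higher side. It measured 243, 53 and 110 CPM in control M and 34.7, 20.5 and 27.7 CPM in WT M. The control libraries lay above all WT libraries but differed by over 4 times among themselves (log2 difference 2.29, SE 0.63, unadjusted p = 0.0023; 1.55 without control M 1 and 2.42 without control M 3). Of 12 genes of iron handling, listed after values had been seen, Slc11a2 was the 1 apart (8%, against 3% of all genes). In that list 8 were higher, with a median of 0.37. That median was 0.16 without control M 3, with 6 of 12 higher and 3 apart (against 7.78% of all genes). Tfrc, the transferrin receptor, had 574, 372 and 153 CPM against 139, 165 and 406 CPM, and Slc40a1, the iron exporter, 406, 188 and 211 CPM against 265, 95.2 and 56.1 CPM. Fth1, ferritin heavy chain, differed by 0.40 (SE 0.31). In F, Slc11a2 measured 92.0, 287 and 30.9 CPM in control and 28.2, 41.6 and 50.4 CPM in WT, with overlap (log2 difference 1.77, SE 0.62).

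**Figure D4:**
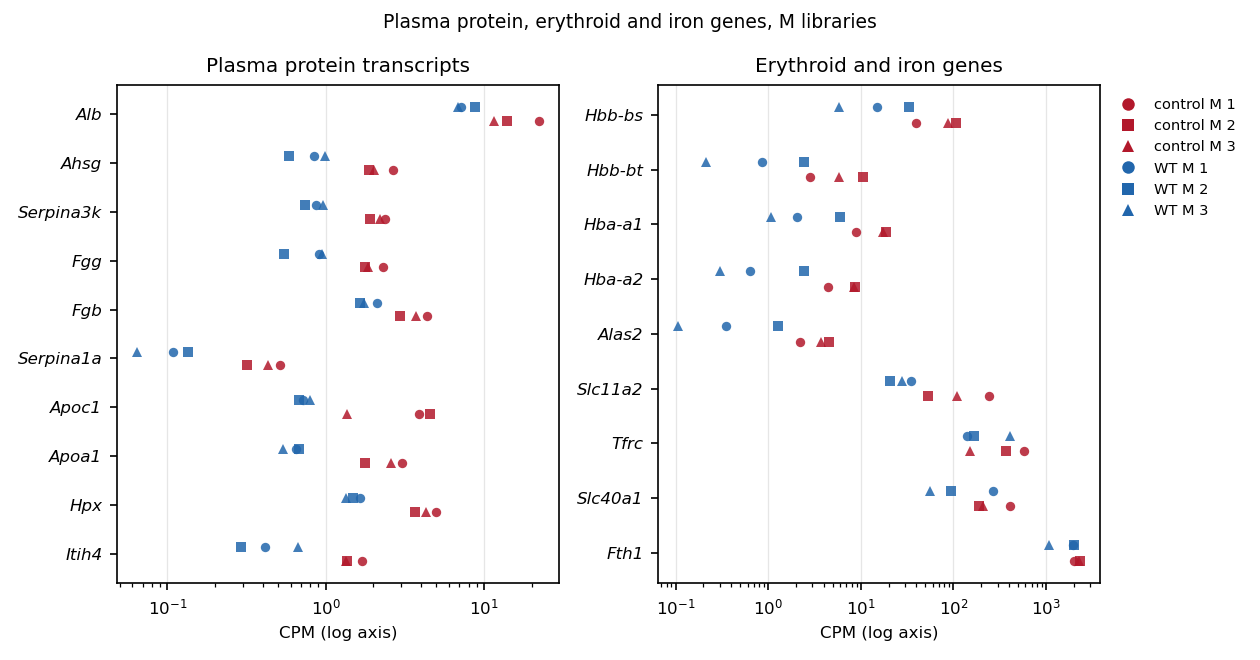
Level of plasma protein transcripts (left) and of erythroid and iron genes (right) in every M library, in CPM on a log axis, with control libraries in red and WT libraries in blue. Red marks lie right of blue for all 10 genes on the left and for the globins, Alas2 and Slc11a2 on the right, while Tfrc, Slc40a1 and Fth1 are mixed.

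Markers of T and NK cells stood higher in control M in 25 of 26 genes, with a median of 0.52, and 7 were apart (27%, against 3% of all genes). Ctla4, a checkpoint receptor of regulatory and activated T cells, measured 4.56, 2.58 and 2.71 CPM against 1.18, 1.17 and 1.20 CPM (log2 difference 1.47, SE 0.52, unadjusted p = 0.013). Foxp3, the factor of regulatory T cells, measured 0.993, 1.63 and 2.54 CPM against 0.828, 0.520 and 0.858 CPM, and Icos, a costimulator, 3.88, 4.17 and 3.12 CPM against 1.68, 1.78 and 1.84 CPM. In these 3 genes every control library lay above every WT library. Cd8a, the co-receptor of cytotoxic T cells, depended on control M 3. It measured 0.865 and 1.89 CPM in control M 1 and 2 and 13.1 CPM in control M 3, against 1.42, 4.41 and 4.42 CPM, and without control M 3 its difference went from 0.63 to -1.30. For the whole list the median without that library was 0.25 with 19 of 26 higher and 8 apart, against 7.78% of all genes. In F all 26 were higher, with a median of 0.70 and 12 apart (46%, against 5.64%).

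B cell and follicle genes were higher in 17 of 17, with a median of 0.59, but in none did the groups stay apart, and no member had an unadjusted p under 0.05. Cd22, a receptor of B cells, measured 12, 17.9 and 5.43 CPM against 11.2, 4.92 and 2.36 CPM. The lowest control library was control M 3 and the highest WT library WT M 1, and Cxcr5, Ebf1 and Cxcl13 showed the same 2 libraries nearest each other or crossing. Without control M 3, 12 of 17 were apart, against 7.78% of all genes, and the median was 0.98. Constant chains and other plasma cell genes had a median of -0.16 and macrophage genes one of 0.01, with 0 apart in either list. S100a9 and S100a8, which neutrophils carry and stressed epithelium can make, were higher at very low levels. S100a9 measured 3.97, 1.47 and 0.636 CPM against 0.240, 0.203 and 0.107 CPM, apart in every library (log2 difference 3.45, SE 0.71, edgeR adjusted p = 0.539, DESeq2 adjusted p = 0.0032; 2.50 without control M 1). S100a8 overlapped, with control M 3 at 0.246 CPM under WT M 1 at 0.305 CPM, and the neutrophil receptor Cxcr2 did not exceed 0.607 CPM. In the neutrophil list 11 of 14 were higher, with a median of 0.80 that was 0.17 without control M 1. In that list 1 was apart (7%, against 3% of all genes). In its 16 members tested without control M 3, 14 were higher, with a median of 1.16. Of the 14 tested with all libraries, 5 were then apart, against 7.78% of all genes.

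Genes of the epithelial antimicrobial response had a median of 0.77, with 15 of 18 higher and 2 apart (11%, against 3% of all genes). The 2 were S100a9, which the neutrophil list also holds, and Nos2. The median of the list was 0.48 without control M 3, with 14 of 18 higher and 6 apart, against 7.78%. Lcn2, lipocalin 2, which sequesters bacterial iron carriers, measured 10.5, 14.8 and 6.03 CPM against 5.81, 7.34 and 3.0 CPM (log2 difference 0.95, SE 0.33), and control M 3 lay between WT M 1 and 2. Saa2, serum amyloid A, differed by 0.66 (SE 0.34) with WT M 1 inside the control range. Reg3b, an antibacterial lectin, was at 63.6 CPM in control M 3 and at 0.386 and 0.336 CPM in control M 1 and 2, so its difference of 3.19 was -2.69 without that library. Type I interferon response genes lay lower in 27 of 30, with a median of -0.27 and 0 apart. All 30 lay lower without control M 3, with a median of -0.67 and still 0 apart. In F all 30 were higher with a median of 1.26. The difference of these medians was not tested as a list.

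Endothelial genes were higher in 12 of 12, with a median of 0.26 and 4 apart (33%, against 3% of all genes), and were also higher in 12 of 12 in F. In M without control M 3 the median was also 0.26, and 6 were apart, against 7.78%. Eng, a co-receptor of TGF-beta on vessels, measured 32.1, 33.7 and 29.9 CPM against 17.8, 20.1 and 19.5 CPM (log2 difference 0.74, SE 0.25, unadjusted p = 0.011). Vwf, Kdr and Cdh5 were apart as well, at 0.84, 0.56 and 0.30, while Pecam1 and Cldn5 overlapped. Smooth muscle genes lay lower in 16 of 16, with a median of -0.29 and 0 apart. Their sum was 4440, 4627 and 2992 CPM in control M and 3469, 6496 and 4826 CPM in WT M, so the groups overlapped, and without control M 3 4 members turned higher and the median was -0.14.

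Enteric glia genes were higher in 9 of 10, with a median of 0.39 that was 0.02 without control M 3. The 2 apart were both higher (20%, against 3% of all genes). They were Fabp7, at no more than 0.371 CPM, and Foxd3, a neural crest factor, at 0.773, 0.690 and 1.09 CPM against 0.457, 0.294 and 0.515 CPM. Enteric neuron genes lay lower in 18 of 20 with a median of -0.13. The 1 apart, Elavl3, was higher (5%, against 3% of all genes). Immediate early genes, which rise within minutes of stimulation, were higher in 23 of 25, with a median of 0.39. In that list 1 was apart, Socs3 (4%, against 3% of all genes). Its median without control M 3 was 0.64, with 24 of 25 higher and 5 apart, against 7.78%. The mean log2 CPM of the list was 5.21, 4.26 and 3.85 in control M 1 to 3 and 3.79, 4.66 and 4.10 in WT M 1 to 3. Only control M 1 thus lay above the WT range, and control M 2 and 3 lay inside it. Fos, the founding member, measured 165, 44.5 and 32.5 CPM against 27.3, 86.2 and 87.6 CPM, high in control M 1 and below 2 of the WT libraries in the other control libraries.

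Goblet cell genes lay lower in 14 of 14, with a median of -0.51. Only Fer1l6 was apart (7%, against 2.62% of all genes), and no member had an unadjusted p under 0.05. Clca1, a secreted protein of mucus, measured 1422, 7509 and 1566 CPM against 7277, 10299 and 6862 CPM (log2 difference -1.22, SE 0.78). Control M 2 reached into the WT range, and without it the difference was -2.45. Agr2, which folds mucins, differed by -0.96 (SE 0.50), Spink4 by -0.94 (SE 0.55) and Fcgbp by -0.74 (SE 0.43), and Muc2, the gel-forming mucin, measured 1659, 3019 and 11737 CPM against 2650.2, 10663 and 12769 CPM. When control M 3 was left out, 2 of 14 goblet genes were higher, with a median of -0.46 and 1 apart, against 6.54% of all genes. In F 12 of 14 goblet genes were higher, with a median of 0.48. Genes of general epithelial identity had a median of -0.03 and colonocyte genes one of -0.14, with 1 and 0 members apart. The 1 member was higher (8% of its list, against 3% of all genes).

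Fat cell genes differed widely from library to library. Of 16 tested 13 were higher, with a median of 1.01, and none was apart. Cfd, adipsin, measured 35.8, 65.6 and 1.74 CPM in control M and 0.0436, 0.136 and 8.30 CPM in WT M, and Adipoq, adiponectin, 7.93, 32.7 and 2.09 CPM against 0.0871, 0.0678 and 7.36 CPM. Control M 1 and 2 held most and WT M 1 and 2 almost none, with replicate 3 of each group crossed. Leaving out control M 3, 5 of 16 were apart, against 7.78% of all genes, and the median was 1.16. In F 0 of 16 were higher and the median was -1.07. Mesothelial genes, of the outer lining, were led by WT M 2, with Upk3b at 9.51 CPM there, 2.61 and 0.279 CPM in the other WT libraries and 0.607, 2.16 and 0.0820 CPM in control M. The median of that list went from -0.91 to 0.22 without WT M 2. Of 9 mast cell genes 8 were higher with a median of 0.90 and 0 apart, and the proteases Mcpt1 and Mcpt2 were highest in control M 3, at 16.1 and 8.06 CPM, and at most 2.83 CPM elsewhere. Of the 10 mast cell genes tested without control M 3, 6 were higher, with a median of 0.31. Of the 9 tested with all libraries, 1 was then apart, against 7.78% of all genes.

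Genes of position and of fat use depended on control M 3 in part. Of 18 Hox genes of groups 3 to 8, 13 were higher with a median of 1.71, which was -0.19 without control M 3. Hoxd8 was the 1 apart (6%, against 3% of all genes). Hoxb8 measured 58.8 CPM in control M 3 and between 0.442 and 1.67 CPM elsewhere. Hoxc6 was detected at 2.52 CPM in control M 3 while no other library exceeded 0.159 CPM. Hoxd10, of the 5′ end of its cluster, differed another way, at 10.4, 1.96 and 11.2 CPM against 2.29, 0.497 and 0.343 CPM, with control M 2 inside the WT range (log2 difference 2.91, SE 0.97), and Hoxd11 and Hoxd9 differed by 2.30 and 2.11 with overlap. Hoxc10 was at 1.46 CPM in control M 3, at 0.0531 CPM in control M 2 and at 0 in the other 4 libraries. Hoxa13, Hoxa10 and Hottip, distal genes of the a cluster, were at 2.34, 7.16 and 0.0410 CPM in control M 3 and at no less than 73.6, 64.5 and 28.4 CPM in the rest. Over the 14 distal Hox genes tested the median was 0.78, with 9 higher and 0 apart. Without control M 3 it was 0.45, again with 9 of 14 higher, and 1 was apart, against 7.78% of all genes.

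Fatty acid oxidation and ketogenesis genes were higher in 23 of 24, with a median of 0.43 and 4 apart (17%, against 3% of all genes). Cpt1a, the gatekeeper of fatty acid entry into mitochondria, measured 250, 258 and 392 CPM against 182, 243 and 136 CPM, and Angptl4, an inhibitor of lipoprotein lipase, 6.75, 10.1 and 53 CPM against 3.81, 4.09 and 1.46 CPM. Both were apart, with the highest value in control M 3. Ppara, the nuclear receptor of the pathway, measured 40.1 CPM in control M 3 and between 3.98 and 7.72 CPM in the other 5. Without control M 3 the median was 0.20, with 18 of 24 higher and 4 apart, against 7.78% of all genes. Fabp6, Slc10a2 and Sis, which serve bile acid uptake and sugar digestion in small intestine, stood at 224, 181 and 72.7 CPM in control M 3 and at no more than 12.1 CPM elsewhere. Colonocyte genes summed to 18957 CPM in control M 3, inside the WT M range of 14140 to 28957 CPM. Their mean log2 CPM was 6.65 in control M 3 and between 7.36 and 8.28 in the other 5 libraries. The part of position along the gut in the other differences was not tested. The cholesterol, Dbp phase and hepatocyte medians without that library were -0.81, -0.66 and 1.19, as given above.

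**Figure D5:**
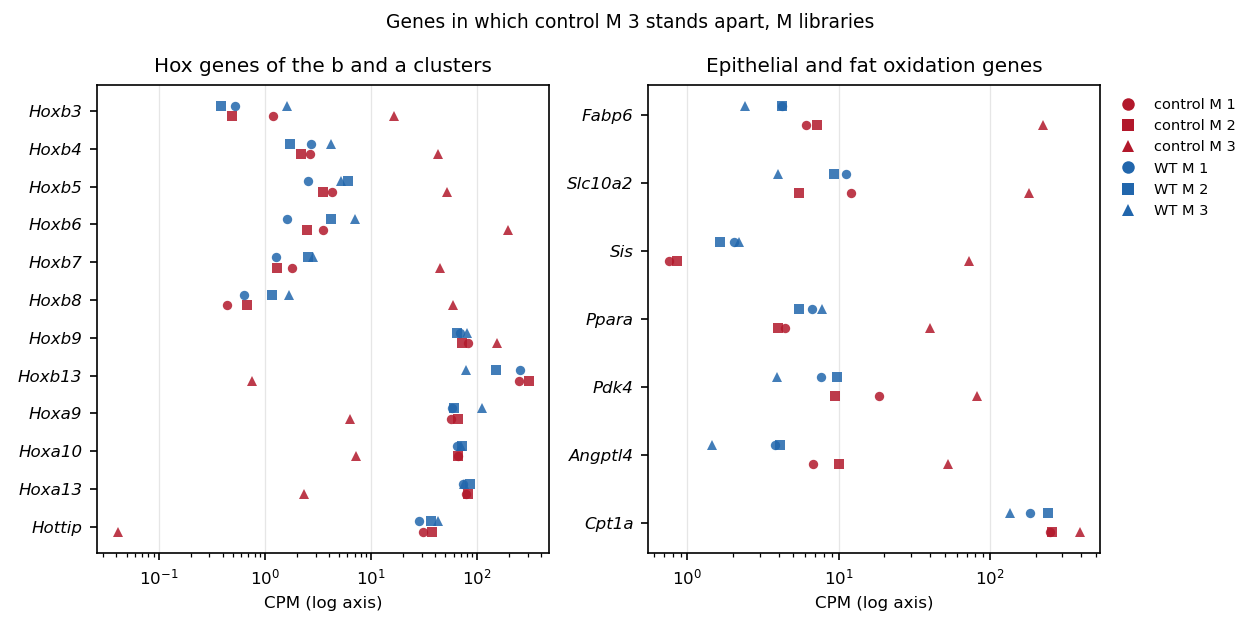
Level of Hox genes (left) and of epithelial and fat oxidation genes (right) in every M library, in CPM on a log axis, with control libraries in red and WT libraries in blue and replicate 3 as triangles. The red triangle of control M 3 lies apart from the other 5 marks, to the right for Hoxb6, Fabp6 and Ppara and to the left for Hoxb13 and Hottip.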

How the data were processed

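Bulk RNA of mouse intestinal tract was sequenced after Trizol extraction and oligo(dT) selection, per the labels' protocols, and the authors deposited raw counts per gene. The submitters' processing notes name FastQC, fastp, SAMtools, HISAT2, Subread's featureCounts and the build GRCm39, with versions and the strand setting not given in the sources used here. Reads of near-identical or overlapping genes may therefore be split. The table held 55416 rows, of which 3333 had no symbol and kept their identifiers, and 0 columns of unmapped samples.

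Genes passing filterByExpr (minimum count 10) were scaled by TMM and tested in edgeR 4.0.16 (R 4.3.3, limma 3.58.1) with a quasi-likelihood fit over 18 libraries in 6 groups, with Benjamini-Hochberg adjustment. Levels are TMM-scaled CPM. Named genes were 10 fixed genes, any gene passing, the 10 smallest p in each direction at a mean log2 CPM of at least 1, 4 members of each list whose median lay at least 0.5 from 0, and the 3 smallest p of the M and F difference. All 62 lists, and the members described, were chosen with earlier results of these data known. Another 3 lists (iron handling, other plasma proteins, other SREBP2 targets) were added after values were seen.

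Same-numbered control M and WT M libraries deviated together (correlation of deviations 0.46, 0.40 and 0.45), so the replicate number was treated as pairing them in a blocked alternative. Same-numbered F libraries did not, at 0.17, 0.04 and -0.41, while control F 3 and WT F 2 had 0.43. The labels did not say that the replicate number pairs libraries. Of the 15 pairs of the 6 libraries 0 were identical, and replicates differed beyond counting noise. On simulated counts for control M against WT M over 21305 genes, the test recovered 25% of genes changed by a log2 of 1 and 64% of those changed by 2, with 4 calls among unchanged genes. The simulation drew each gene independently, without shifts shared by many genes of 1 library such as control M 3. These shares therefore need not hold for the 6 libraries. Alternatives were DESeq2 1.42.0, limma-voom, other size factors and filters, the block, fewer libraries and leaving out each library. Some members of the lists are counted in the list totals but not reported singly here.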

Additional observations from a re-analysis of the deposited data

Results flagged for a closer look

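The mean log2 difference of the cholesterol synthesis and uptake genes was -1.02 in M and 0.43 in F, a difference of -1.45 between the codes. It was singled out because every control M library lay below the WT M mean of the list and every control F library lay above the WT F mean. The other SREBP2 targets, listed after values were seen, met the same condition with means of -0.38 in M and 0.13 in F, a difference of -0.51. Among the 65 gene lists 5 others met it. Fasting and FOXO targets had means of 0.31 in M and -0.31 in F (0.62 apart), glucocorticoid response genes 0.42 and -0.35 (0.77 apart), and enteric glia genes 0.27 and -0.41 (0.68 apart). Genes of the unfolded protein and integrated stress response stood at -0.25 and 0.18, a difference of -0.43, and eosinophil genes at -0.12 and 0.21, a difference of -0.33. None of these differences of list means was tested. The gap test for a single outlying library needs at least 4 libraries a group and was not run.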

How the results depend on the processing

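With edgeR 0 genes were called in M, F and their difference under every size factor, filter and left-out library, and limma-voom also called 0. A fit of only the 6 libraries compared, run for M and for F but not for their difference, called 0 as well. DESeq2 called 17 in M (11 higher, 6 lower), 2 in F (1 higher, 1 lower) and 7 in the difference (3 higher, 4 lower), and the cause was not tested. The replicate block gave 0 calls over 18 libraries, as did blocks within the code or over 6 libraries, both chosen after seeing the data, so the block changed no call. Leaving out 1 library gave 0 to 0 calls in each comparison. The cholesterol median ranged from -1.13 to -0.79 over left-out libraries, with 23 to 25 of 25 genes lower in all settings.

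Of single genes, limma-voom turned Mcpt1 to -0.089, Axin2 to -0.0029 and Krt15 to -0.020. Left-out libraries turned the sign of 8 of the 76 genes named by rule, whose values then spanned -0.50 to 4.53 for Hoxb6, -1.05 to 4.67 for Hoxb8 and -0.024 to 1.91 for Mcpt2, with the lowest value without control M 3. The spans were -3.23 to 0.22 for Lrrn4, -1.32 to 0.12 for Upk1b and -0.97 to 0.67 for Notum, with the highest value without WT M 2. They were -0.13 to 0.51 for Krt15 and -0.15 to 0.080 for Ctnnb1. The causes were not tested. Among list medians 329 alternatives stayed within the spread and 31 did not, and none of these carries a test. Read depth limits chiefly the scarce transcripts, such as Slc4a1, Serpina1a and Hoxc10, whose values rest on few reads.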
